A study of Homo sapiens with 24 samples.

Results

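Secretory cells of the breast and of apocrine glands release a small set of abundant proteins into milk, sweat and cyst fluid, and the genes for these proteins are used as markers of breast origin. Several of them are known to respond to steroid hormones, and prolactin signalling through STAT5 also acts on some. Apocrine breast cancers lack the oestrogen receptor (ER) but keep FOXA1, a factor that opens chromatin for steroid receptors. Here 8 genes of this kind were followed: PIP, SCGB2A2, PHGR1, SCGB1D2, MUCL1, AZGP1, APOD and CLDN8, which are 8 of the 59609 genes in the count table, and all 8 were found in it by symbol. They were chosen by their measured change: PIP, SCGB2A2 and PHGR1 were selected on having the largest increases under abemaciclib in MDA-MB-453, and the other 5 were added as related secretory or epithelial genes. The abemaciclib against DMSO values of MDA-MB-453 therefore describe how the genes were picked and carry no test.

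The data were 3′ RNA-seq counts from 2 wild-type, ER-negative lines of human breast cancer. These were MDA-MB-453, which carries the results, and MDA-MB-231. MDA-MB-231 was grown in RPMI-1640 and MDA-MB-453 in DMEM, both with fetal bovine serum. Over 5 days each line received DMSO (the vehicle), abemaciclib at 500 nM, fulvestrant at 5 nM, or the combination of both drugs at these doses, with n = 3 libraries in each of the 8 groups. Abemaciclib inhibits CDK4 and CDK6, the kinases that phosphorylate the retinoblastoma protein, and fulvestrant degrades ER. Each line stands for a single tumour. Levels are given as CPM, a gene's count relative to the total of its library at the usual scale of this unit, with edgeR's TMM scaling (which corrects for differences in composition) over the 24 libraries, and fold changes and adjusted p-values come from edgeR's quasi-likelihood test with Benjamini-Hochberg adjustment over every gene tested in a line. A gene was called when its adjusted p lay below 0.05.

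Library totals ran from 2873558 to 4158762 counts, and no library was left out. The markers fitted the names of the lines: the summed level of 5 mesenchymal markers was 1677 to 2343 CPM in the MDA-MB-231 libraries and at most 0.700 CPM in those of MDA-MB-453, and 8 luminal epithelial markers summed to 632 to 798 CPM and 3788 to 5111 CPM. ESR1, which encodes ER, had 8 counts in all in each line. Mitochondrial transcripts took a larger share of the counts when abemaciclib was present. In MDA-MB-453 this share was 15.2% ± 0.650 (SD, n = 3) under DMSO, 14.3% ± 0.872 under fulvestrant, 23.8% ± 1.91 under abemaciclib and 21.2% ± 0.381 under the combination.

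MDA-MB-453 expressed most of the 8 genes, and in MDA-MB-231 they were at or close to 0 counts. In MDA-MB-231, PIP, SCGB1D2, MUCL1 and CLDN8 had 0 counts in all 12 libraries, which held 42620524 counts together, so that 3 counts, the limit that a count of 0 allows, correspond to 0.0688 CPM. AZGP1 had 1 count in that line, PHGR1 had 5 counts, all of them in combination replicate 3, and SCGB2A2 had 12 counts spread over 8 libraries with at most 3 in any of them. APOD had 17 counts in 6 libraries, with at most 6. None of the 8 genes passed the filter on low counts in MDA-MB-231, and no difference between the lines in the drug response was tested for them. In MDA-MB-453, 7 of the 8 passed, and APOD, a lipocalin that carries lipids in cyst fluid, did not. APOD had 7 counts over the 12 MDA-MB-453 libraries, in 4 of them and with at most 2 in each, so its level was not separated from 0 in any treatment. Its few counts lay in both lines and in each group except MDA-MB-231 DMSO, where it had 0.

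**Figure D1:**
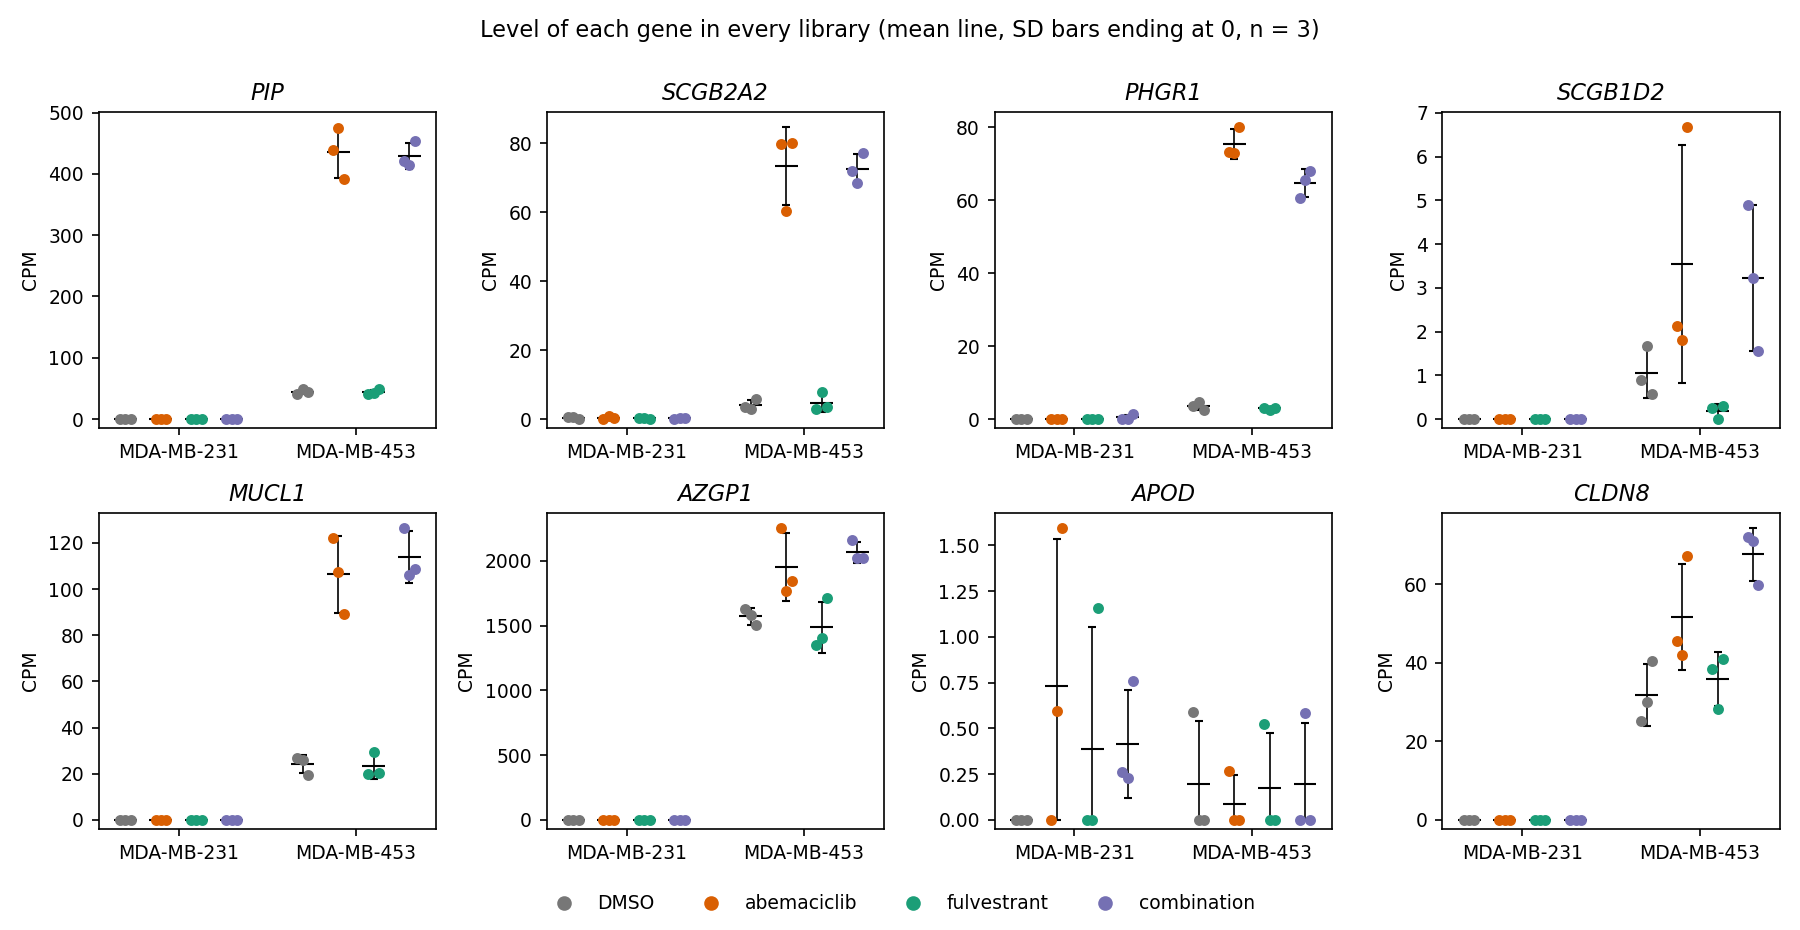
Level of each of the 8 genes (CPM, linear axis, a separate scale in each panel) in the 24 libraries, with points for libraries, a line for the mean of 3 and bars for the SD. In MDA-MB-453 the abemaciclib and combination points of PIP, SCGB2A2, PHGR1 and MUCL1 lie above all DMSO and fulvestrant points, while MDA-MB-231 stays at or near 0 throughout.

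PIP (GRCh38 chromosome 7, 143132077 to 143139739, plus strand) encodes prolactin-induced protein, a secreted protein of apocrine glands. Under DMSO, MDA-MB-453 replicates 1 to 3 had 40.5, 49.1 and 43.9 CPM. Under fulvestrant they stood at 40.9, 42.2 and 48.2 CPM. These 6 libraries lay within the same narrow band. Abemaciclib gave 439, 475 and 392 CPM, and the combination gave 421, 415 and 454 CPM. All 6 libraries with abemaciclib lay above all 6 without it.

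SCGB2A2 (chromosome 11, 62270158 to 62273160, plus strand) encodes mammaglobin-A, a secretoglobin made largely by breast tissue. Its DMSO libraries held 3.55, 2.78 and 5.78 CPM and its fulvestrant libraries 2.87, 7.88 and 3.57 CPM. The highest of these, fulvestrant replicate 2, rested on 31 counts where the other 5 libraries had 10 to 20. With abemaciclib the level was 79.9, 60.4 and 80.2 CPM, and with the combination it was 72.1, 68.4 and 77.1 CPM. The lowest library with abemaciclib was thus still far above the highest library without it.

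PHGR1 (chromosome 15, 40351033 to 40356434, plus strand) encodes a short protein rich in proline, histidine and glycine that is best known from the lining of the intestine. DMSO gave 3.55, 4.72 and 2.60 CPM, and fulvestrant gave 3.13, 2.54 and 2.98 CPM. Abemaciclib gave 73.2, 73.0 and 80.2 CPM, and the combination gave 60.5, 65.4 and 68.0 CPM. The combination libraries all lay below the abemaciclib libraries, a gap that did not pass the test described further on. Genes that define the intestinal lining were near 0 in the same cells: of 12 such genes, at most 1 had any count in a MDA-MB-453 group, their summed level was 0 to 0.596 CPM, and all 12 had 0 counts in the abemaciclib and combination groups.

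SCGB1D2 (chromosome 11, 62242239 to 62244812, plus strand) encodes lipophilin B, the secretoglobin that forms a complex with mammaglobin-A. The gene lies 25.3 kb before SCGB2A2 on the same strand. It was barely expressed, with 3, 6 and 2 counts in the DMSO libraries and 1, 0 and 1 counts in the fulvestrant libraries. Under abemaciclib it had 8, 6 and 20 counts, and under the combination 14, 11 and 6. Libraries of the DMSO, abemaciclib and combination groups met at 6 counts, whereas the fulvestrant libraries lay below all others. Its neighbours on the chromosome were lower still: SCGB1D1, SCGB1D4 and SCGB1A1 had 0 counts in both lines and SCGB2A1 had 27 counts in MDA-MB-453, so within this cluster of secretoglobin genes the counts were mainly those of SCGB2A2.

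MUCL1 (chromosome 12, 54830518 to 54896008, plus strand) encodes small breast epithelial mucin, a secreted glycoprotein. Replicates 1 to 3 had 26.9, 26.1 and 19.6 CPM under DMSO and 19.8, 29.5 and 20.5 CPM under fulvestrant. Abemaciclib gave 122, 108 and 89.2 CPM, and the combination gave 127, 106 and 109 CPM. The groups with and without abemaciclib did not overlap.

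AZGP1 (chromosome 7, 99966720 to 99976042, minus strand) encodes zinc-alpha-2-glycoprotein, a secreted protein that promotes the breakdown of stored fat. It was already at 1629, 1582 and 1501 CPM under DMSO and at 1347, 1404 and 1710.1 CPM under fulvestrant. Abemaciclib gave 2255, 1765 and 1843 CPM and the combination 2158, 2018 and 2021 CPM. The increase was small beside this starting level, and the nearest abemaciclib and fulvestrant libraries were close to each other.

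CLDN8 (chromosome 21, 30214006 to 30216097, minus strand) encodes a claudin of the tight junction, the seal between epithelial cells, and is a membrane protein. DMSO gave 25.2, 30.0 and 40.5 CPM and fulvestrant 38.3, 28.2 and 41.1 CPM. With abemaciclib the libraries held 45.7, 42.1 and 67.2 CPM, and with the combination 72.1, 71.0 and 59.8 CPM. Each abemaciclib library lay above each DMSO library, but by little. None of the 8 genes shared exon bases with another annotated gene on either strand.

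In the comparison that picked the genes, abemaciclib against DMSO in MDA-MB-453, the log2 fold changes were 4.36 for PHGR1, 4.17 for SCGB2A2, 3.28 for PIP, 2.13 for MUCL1, 1.69 for SCGB1D2, 0.68 for CLDN8 and 0.31 for AZGP1. Among called genes averaging at least 10 CPM with groups that did not overlap, PIP was the last of the 3 inside the rule. The next genes outside it were PTGES at 2.93, INPP4B at 2.89 and GPRC5B at 2.82. The value of SCGB1D2 rested on abemaciclib replicate 3 and was 0.88 without that library. Without DMSO replicate 3, SCGB2A2 stood at 4.52.

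The response was then tested where abemaciclib was added to fulvestrant, combination against fulvestrant in MDA-MB-453, since the rule used none of these 6 libraries. Of 11080 genes tested, 17.2% were called higher and 19.4% lower, and in 22.7% every combination library lay above every fulvestrant library. PHGR1, SCGB2A2, PIP, MUCL1, CLDN8 and AZGP1 reached the filter on low counts in the DMSO and fulvestrant libraries too, and all 6 were called higher with groups that did not overlap. SCGB1D2 passed the filter only through 3 libraries with abemaciclib, so that it could scarcely have entered the fit without differing, and it is given as counts with no test. The median log2 fold change of the 6 genes was 2.79, beside 0.01 over all genes tested.

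PHGR1 rose from 2.88 ± 0.305 to 64.7 ± 3.82 CPM (SD, n = 3 each), which is 4.48 in log2 units (SE 0.23, adjusted p 4.4e-21 by edgeR). SCGB2A2 rose from 4.77 ± 2.71 to 72.5 ± 4.38 CPM, at 3.90 (SE 0.24, adjusted p 2.5e-18 by edgeR). PIP rose from 43.8 ± 3.90 to 429.8 ± 21.2 CPM, at 3.30 (SE 0.11, adjusted p 1.2e-28 by edgeR). These 3 genes ranked 8, 10 and 33 by log2 fold change among the 11080. MUCL1, at rank 94, rose from 23.3 ± 5.39 to 114 ± 11.1 CPM, or 2.28 in log2 units (SE 0.16, adjusted p 2.0e-16 by edgeR). The secreted proteins did not all move by the same amount: AZGP1, at rank 2416, rose from 1487 ± 195 to 2066 ± 80.0 CPM, only 0.48 on the log2 scale (SE 0.08, adjusted p 5.8e-06 by edgeR). CLDN8, at rank 1004, rose from 35.9 ± 6.78 to 67.6 ± 6.82 CPM, at 0.92 (SE 0.18, adjusted p 4.4e-05 by edgeR). The ratio of SCGB1D2, 31 counts against 2, was 17.0 after scaling (95% interval from counting error alone, 4.32 to 147).

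**Figure D2:**
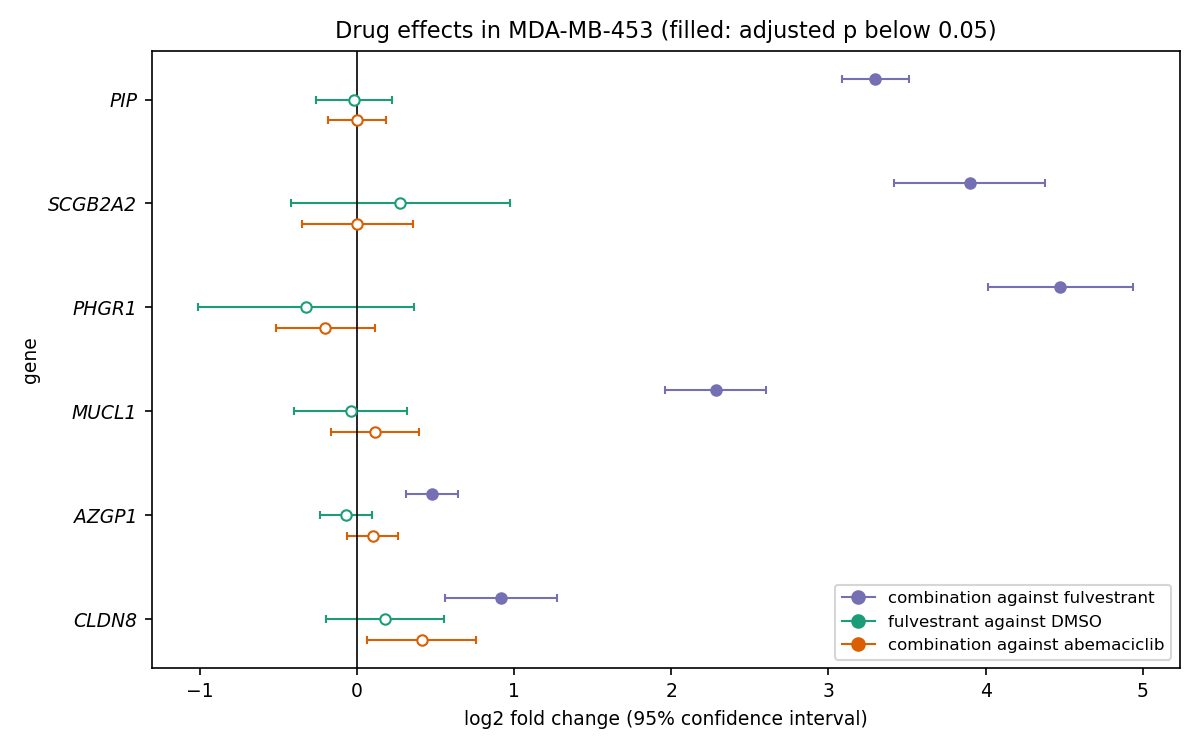
Fitted log2 fold changes of 6 genes in MDA-MB-453, with 95% confidence intervals from the fit, in 3 comparisons (colours), filled where the adjusted p lies below 0.05. Against fulvestrant the combination points lie to the right of 0, from 0.48 for AZGP1 to 4.48 for PHGR1, while the fulvestrant against DMSO and combination against abemaciclib points are open.

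Shares of the counts behaved in the same way as the scaled levels. Without AZGP1, which held most of the counts, the other 7 genes took 0.0114% ± 0.000432 of the counts in the fulvestrant libraries and 0.0745% ± 0.00195 in the combination libraries of MDA-MB-453, against 0.0107% ± 0.000650 under DMSO and 0.0686% ± 0.00400 under abemaciclib. The mitochondrial share moved with abemaciclib as well. With mitochondrial genes removed before scaling, the 6 genes were again called higher, at log2 fold changes between 0.48 (AZGP1) and 4.48 (PHGR1). In bulk RNA, a larger share of expressing cells and more RNA in each cell cannot be told apart.

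**Figure D3:**
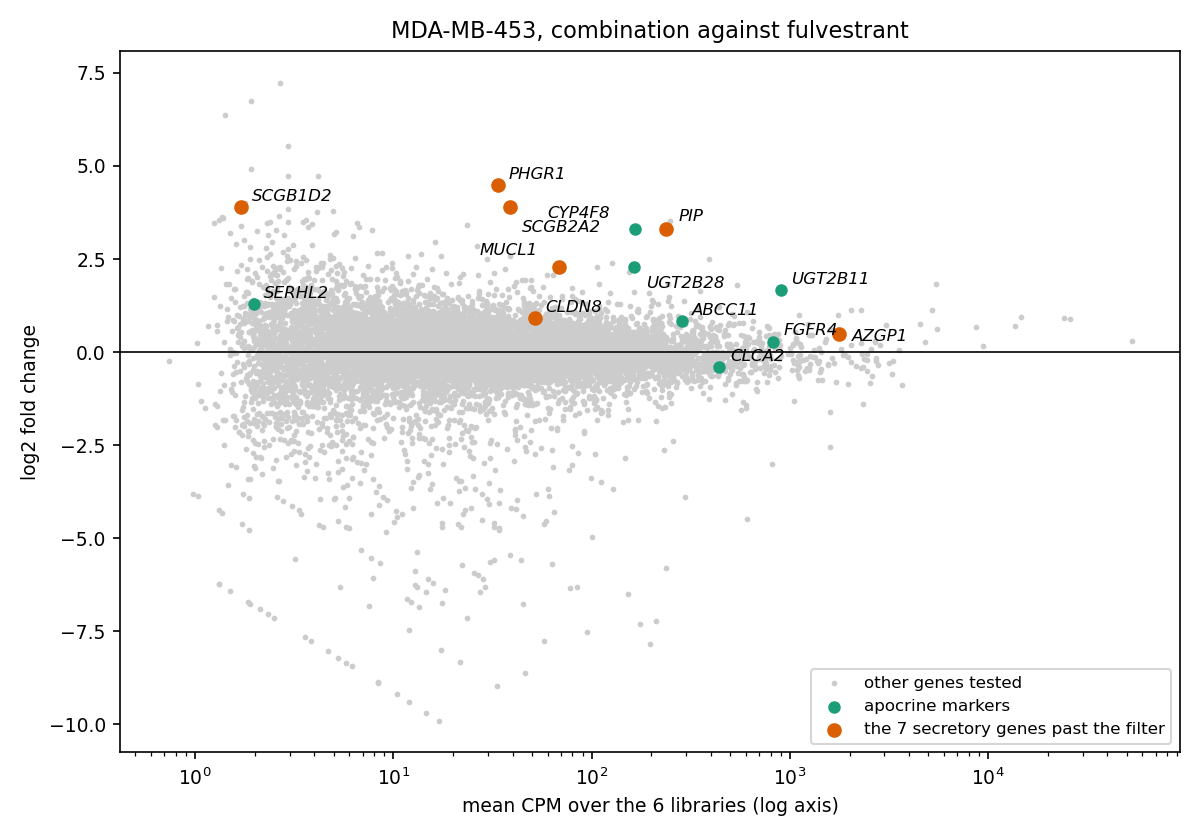
Log2 fold change of every gene tested (combination against fulvestrant, MDA-MB-453) against its mean CPM over the 6 libraries on a log axis, with the 7 secretory genes in orange and the apocrine markers in green. PHGR1, SCGB2A2 and PIP lie at the upper edge of the cloud for their level, at 4.48, 3.90 and 3.30, and AZGP1 at 0.48 lies within it.

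Fulvestrant by itself addressed whether an ER degrader moves these genes in cells without ER. None of the 6 genes tested was called between fulvestrant and DMSO in MDA-MB-453, where 1.41% of the genes were called in either direction. The difference was −0.02 for PIP on the log2 scale (95% interval −0.26 to 0.22), −0.04 for MUCL1 (−0.40 to 0.32) and −0.07 for AZGP1 (−0.23 to 0.10). For the genes at a few CPM the intervals were wider, at 0.28 for SCGB2A2 (−0.42 to 0.97) and −0.32 for PHGR1 (−1.01 to 0.36). CLDN8 stood at 0.18 (−0.20 to 0.55). SCGB1D2, with 2 counts against 11, stood at −2.32 and is given with no test. The value of SCGB2A2 rested on fulvestrant replicate 2 and was −0.32 without it. These differences share the DMSO libraries with the comparison that picked the genes.

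Adding fulvestrant to abemaciclib gave no call among the 6 either, where 2.46% of the genes were called in either direction. The combination differed from abemaciclib by 0.00 log2 units for PIP (95% interval −0.18 to 0.18) and 0.00 for SCGB2A2 (−0.35 to 0.35). MUCL1 differed by 0.11 (−0.17 to 0.39), AZGP1 by 0.10 (−0.06 to 0.26) and PHGR1 by −0.20 (−0.51 to 0.11). CLDN8 was the gene with the largest departure, at 0.41 (0.06 to 0.76), which gave an adjusted p of 0.225 by edgeR. SCGB1D2, again with no test, differed by −0.12, and by 0.69 without abemaciclib replicate 3. The abemaciclib libraries here are those that picked the genes.

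The combination was also set against DMSO, in a comparison where 17.6% of the genes were called higher. It uses the DMSO libraries that picked the genes, so its values are descriptions with no test. The log2 fold changes were 4.17 for SCGB2A2, 4.15 for PHGR1, 3.28 for PIP, 2.24 for MUCL1, 1.57 for SCGB1D2, 1.09 for CLDN8 and 0.41 for AZGP1. For PIP, SCGB2A2, PHGR1 and MUCL1 the 4 treatments fell into an upper pair, abemaciclib and the combination, and a lower pair, DMSO and fulvestrant. No difference inside either pair was called. Each pair holds libraries that picked the genes, so this pairing is a description.

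The stretches before the start sites of the genes that rose are shown to give the sequence that these genes carry there. RefSeq promoter windows on GRCh38.p14, running from 250 bases before to 50 bases after the start, were given for 5 of the 8 genes: PIP, SCGB2A2, SCGB1D2, MUCL1 and AZGP1. PHGR1, APOD and CLDN8 had no entry in that table. Both strands of each window were searched for AGAACA (a steroid receptor half-site), TGTTTAC (FOXA), TTCNNNGAA (STAT5), GGCGGGAA (E2F) and TATAAA (the TATA box). Capitals mark the matches in the 250 bases before the start, 5′ to 3′ on the strand of the gene, at chr7:143131827-143132076 for PIP, chr11:62269908-62270157 for SCGB2A2 and chr12:54854266-54854515 for MUCL1. The MUCL1 stretch precedes the RefSeq start site, which lies 24.0 kb inside the longer gene that GENCODE annotates.
PIP: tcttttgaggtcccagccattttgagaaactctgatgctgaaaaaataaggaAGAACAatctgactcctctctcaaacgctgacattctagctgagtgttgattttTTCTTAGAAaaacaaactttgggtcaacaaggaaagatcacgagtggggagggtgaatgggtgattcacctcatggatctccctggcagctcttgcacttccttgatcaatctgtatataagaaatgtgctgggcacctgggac
SCGB2A2: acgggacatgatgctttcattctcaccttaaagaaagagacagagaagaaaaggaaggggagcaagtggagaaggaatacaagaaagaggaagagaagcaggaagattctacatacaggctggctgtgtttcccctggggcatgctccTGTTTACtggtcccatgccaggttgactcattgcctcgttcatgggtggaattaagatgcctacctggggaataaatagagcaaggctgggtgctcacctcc
MUCL1: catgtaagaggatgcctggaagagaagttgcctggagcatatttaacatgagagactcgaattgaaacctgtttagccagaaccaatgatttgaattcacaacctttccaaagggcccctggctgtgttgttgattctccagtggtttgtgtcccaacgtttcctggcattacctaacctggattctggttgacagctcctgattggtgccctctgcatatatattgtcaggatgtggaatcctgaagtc

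PIP held the receptor half-site with its first base at −198 and the STAT5 motif at −144, counted from the start, where TTCTTAGAA was the sequence read. SCGB2A2 held the FOXA motif at −102. No match overlapped another, and SCGB1D2, MUCL1 and AZGP1 held none of the 5. The GGCGGGAA motif was in none of these windows. Among all 35116 promoter windows of this length, 14.8% held AGAACA, 7.66% TTCNNNGAA, 3.42% TGTTTAC, 3.16% GGCGGGAA and 11.5% TATAAA. These matches describe letters only, and binding was not measured in these libraries.

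Regulators of the secretory programme were described next. Of 13 regulators of mammary and apocrine cells, 10 were tested in MDA-MB-453, and combination against fulvestrant 2 were called higher and 5 lower, with a median log2 fold change of −0.17, where 17.2% of all genes tested were called higher and 19.4% lower. CREB3L1, which activates secretory pathway genes, had the largest increase, from 23.3 ± 2.94 to 52.7 ± 6.96 CPM (1.18, SE 0.18, adjusted p 1.0e-06 by edgeR). TFAP2A was called higher by 0.32. TRPS1, a transcription factor of breast epithelium, fell by 0.79 on the log2 scale, from 474 ± 50.4 to 274 ± 6.25 CPM (SE 0.09, adjusted p 1.1e-09 by edgeR). PRLR, the prolactin receptor, fell by 0.55, and NR3C1, TFAP2B and XBP1, named here after their values were seen, fell by 0.48, 0.39 and 0.22. The falls of NR3C1 and TFAP2B depended on the fulvestrant libraries, which stood 0.35 and 0.28 above DMSO, without a call. For the combination against DMSO they stood at −0.13 and −0.10 and were not called, while XBP1 was called lower at −0.43. In that comparison 2 of the 10 regulators were called higher and 3 lower. FOXA1 at 0.12 and SPDEF at 0.03, a factor of secretory differentiation, were not called. The call of XBP1 was lost without combination replicate 1 or 3. Counting was not stated to use strand. Of the genes named here and further on, FOXA1, TFAP2A, UGT2B11, ABCC11, TSC22D3, SSR3, SRP19 and H4C8, and of those just outside the rule INPP4B and GPRC5B, have exons that overlap an opposite-strand gene, and their reads cannot be told apart from those of that gene. ESR1, ABCC11, CLU, NDRG1, TPD52 and SRP19 have exons that overlap a same-strand gene, and their values are uncertain in the same way.

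Other markers of apocrine cells moved with the secretory genes. Of 14, 7 were tested, 5 were called higher and 1 lower, with a median of 1.30, in a comparison where 17.2% of all genes tested were called higher and 19.4% lower. CYP4F8, a cytochrome P450 that oxidises fatty acids, rose from 30.1 ± 1.78 to 300.1 ± 70.5 CPM (3.32, SE 0.14, adjusted p 7.4e-24 by edgeR). UGT2B28, an enzyme that conjugates androgens, rose from 55.6 to 271 CPM (2.28, SE 0.10, adjusted p 8.5e-23 by edgeR), although it and UGT2B11 have near-identical relatives with which reads may be shared. UGT2B11, ABCC11 and FGFR4, named after their values were seen, rose by 1.66, 0.83 and 0.28. CLCA2 fell by 0.40, from 502 to 380.1 CPM. In MDA-MB-231 the 14 markers summed to 6.18 to 11.9 CPM per library, against 1939 to 3775 CPM in MDA-MB-453, and 0 of the 2 tested were called.

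**Figure D4:**
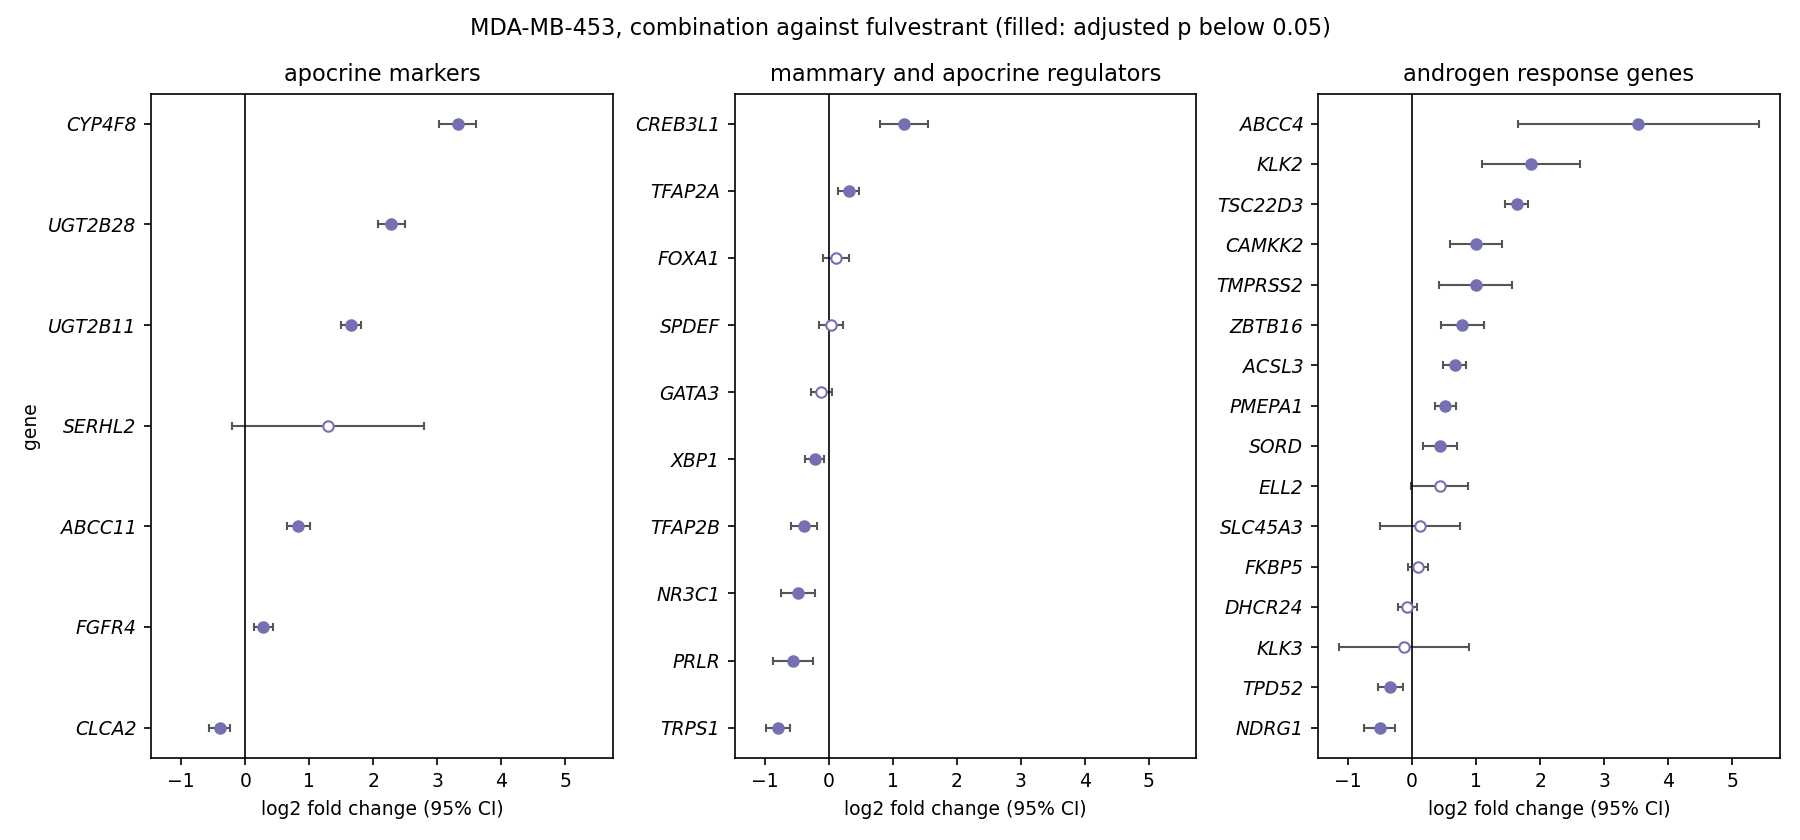
Log2 fold changes with 95% confidence intervals for the tested genes of 3 lists, combination against fulvestrant in MDA-MB-453, filled where the adjusted p lies below 0.05. Apocrine markers lie mostly to the right of 0, regulators lie on both sides, and androgen response genes have 9 called higher and 2 lower.

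More androgen response genes were called higher than lower. Of 20, 16 were tested, 9 were called higher and 2 lower (17.2% and 19.4% over all genes tested), with a median of 0.48. ABCC4, which is on this list, averaged 4.14 CPM under abemaciclib, 0.18 under fulvestrant and 2.47 under the combination. Only its abemaciclib mean lay above the filter's cut of about 2.75 CPM, so a call of it is no support. KLK2, a kallikrein protease that androgens induce, rose from 4.71 to 16.9 CPM (1.86, SE 0.38, adjusted p 1.0e-04 by edgeR), and TSC22D3, which glucocorticoids and androgens induce, rose from 172 to 532 CPM (1.63, SE 0.09, adjusted p 6.9e-20 by edgeR). NDRG1 and TPD52 fell by 0.51 and 0.34. KLK3 at −0.13 and FKBP5 at 0.09, both commonly read as androgen-induced genes, were not called. KLK3 averaged only 4.42 CPM under fulvestrant and 4.03 CPM under the combination, so a change in it could be missed. Against DMSO, FKBP5 was called higher under abemaciclib, by 0.29 (adjusted p 0.0028 by edgeR). It was also called higher against DMSO under the combination, by 0.25 (adjusted p 0.0084 by edgeR).

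Genes of milk and of the secretory route were counted as well, in the same comparison with its 17.2% of genes called higher and 19.4% lower. Only 2 of 23 milk and mammary secretory genes were tested, CLU, which rose from 56.9 ± 6.57 to 253 ± 10.4 CPM (2.16, SE 0.11, adjusted p 1.3e-20 by edgeR), and SLPI, which fell by 0.48. The call of SLPI was lost without fulvestrant replicate 3 or combination replicate 2. Of 15 further secretoglobins and lipocalins, 0 passed the filter in either line. Among 33 genes of the machinery that carries proteins into the endoplasmic reticulum, 32 were tested, 14 were called higher and 2 lower, with a median of 0.22. SSR3 and SRP19, parts of the translocon and of the signal recognition particle, rose by 0.73 and 0.68, and SRP72 and SRP14 fell by 0.40 and 0.28. SRP14 lost its call without fulvestrant replicate 2 or combination replicate 2. Of 17 claudins other than CLDN8, 5 were tested, 2 were called higher and 0 lower. CLDN4 rose by 0.29, and CLDN15, named after its value was seen, by 1.64. CLDN15 averaged 1.48 CPM under fulvestrant and 4.57 CPM under the combination. Only its combination mean lay above the filter's cut of about 2.75 CPM. It probably passed the filter through the group where it is high, so its value is given with no test. The call counted for it was also lost with DESeq2, under the replicate block and without the filter on low counts. It was lost too without any one of fulvestrant replicates 1 and 2 and combination replicates 1 to 3. The call of CLDN4 was weak. It was lost without the filter and without fulvestrant replicate 1 or 2 or combination replicate 1 or 2 (highest adjusted p 0.101, edgeR).

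In MDA-MB-231 the lists were set beside a broad response to abemaciclib, with 33.7% of 11314 genes called in either direction for abemaciclib against DMSO and 36.1% for combination against fulvestrant. Of the 33 secretory machinery genes, 6 were called higher and 7 lower in the first, and 5 higher and 9 lower in the second. Of 3 milk and mammary secretory genes tested, 3 were called higher in the first and 2 in the second, and 0 lower. The 23 genes of that list summed to 141 to 157 CPM under DMSO and 287 to 320 CPM under abemaciclib. Among regulators, 1 of 9 was called higher and 2 lower for abemaciclib, and 2 higher and 0 lower for the combination against fulvestrant. TRPS1 was 1 of these 2, at 0.52 (adjusted p 0.0467 by edgeR), and its call was lost with DESeq2 (adjusted p 0.0581), under the replicate block (adjusted p 0.0558) and without any one of fulvestrant replicates 2 and 3 and combination replicates 1 to 3 (highest adjusted p 0.205). CREB3L1 was called higher in both, at 1.67 and 1.73 (adjusted p 1.8e-06 and 1.2e-06 by edgeR), and its difference between the lines in combination against fulvestrant, −0.55, was not called (adjusted p 0.274).

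The genes whose level over the 12 MDA-MB-453 libraries was most like that of PIP, SCGB2A2 and PHGR1 were looked up among 7987 genes with a mean of at least 10 CPM over these libraries, by Pearson's r of log2(CPM + 1). The r values are high for any gene that steps between the libraries with and without abemaciclib, and they are descriptions only. For PIP the closest were ALDH3B2 (0.998), PHGR1 (0.995) and H4C8 (0.994). For PHGR1 they were APLP2 (0.997), PIP (0.995) and ALDH3B2 (0.995), and for SCGB2A2 they were JUN (0.988), PSAP (0.986) and SIDT2 (0.986). ALDH3B2, an aldehyde dehydrogenase, stood at 120.2 ± 1.30, 739 ± 52.8, 117 ± 10.6 and 665 ± 27.3 CPM under DMSO, abemaciclib, fulvestrant and the combination, and at 0 in MDA-MB-231. H4C8 encodes a histone with near-identical copies, and its counts are uncertain.

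**Figure D5:**
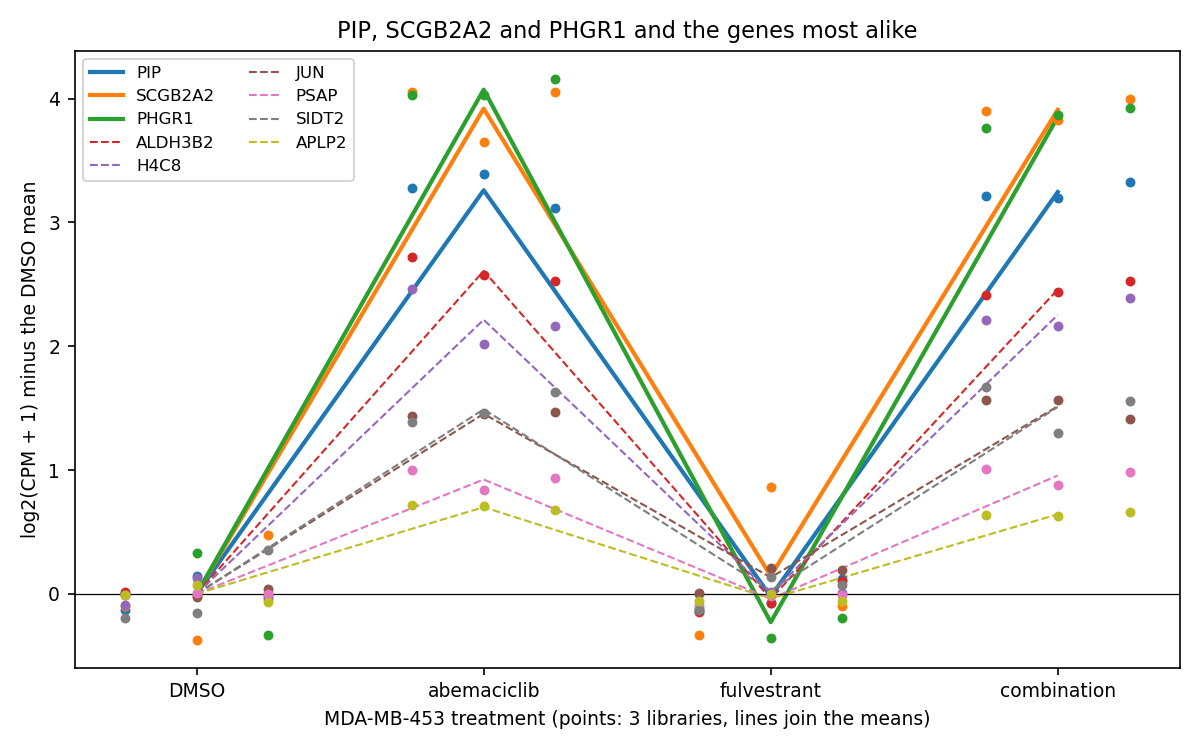
Level of PIP, SCGB2A2, PHGR1 (solid lines) and the genes most like them (dashed lines) in MDA-MB-453, as log2(CPM + 1) minus the DMSO mean, with points for libraries and lines joining the means of 3. All profiles step up in the abemaciclib and combination groups, and the size of the step runs from about that of APLP2 to that of PHGR1 and SCGB2A2.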

How the data were processed

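QuantSeq forward libraries, prepared from total RNA and read single-end on a NextSeq, were trimmed by the authors with BBDuk, aligned with STAR to hg38 and counted per gene with featureCounts on GENCODE. The deposited values are raw gene counts for 24 libraries, not normalized. Strand, multimapped reads and duplicates were not stated. Intervals of fold changes come from the fit and include the spread between replicates, and those of count ratios and the limits for 0 counts cover counting error only. Of its lines, 1 named no gene and held 0 counts. The study numbered 3 biological replicates a group. The p-values set each group difference against the spread between replicates, estimated over all libraries of the fit.

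Counts were filtered with filterByExpr (minimum count 10), scaled by TMM and fitted with edgeR 4.0.16 in R 4.3.3, with the 12 libraries of a line in each fit. The line difference was fitted on all 24. The scripts were tested on simulated data. Replicates were checked for copies: chi-square per degree of freedom was 2.64 to 8.65 in 24 pairs. The members, lists and comparisons were chosen with earlier results of these data known. The named genes were the members, the regulators FOXA1, SPDEF, PRLR and ESR1, up to 2 called genes per list and direction with a mean of at least 10 CPM, the 3 genes just outside the rule and the 3 most alike per leading member. Some genes of the lists are not reported here and were left out of the counts. Positions came from GENCODE on GRCh38, matched by symbol. Alternatives were DESeq2 1.42.0, its size factors, no filter, no mitochondrial genes, a replicate block, fitting the compared groups only and leaving out each library.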

Additional observations from a re-analysis of the deposited data

Results flagged for a closer look

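No member could be compared between the lines, but 14 of the other named genes responded differently to abemaciclib added to fulvestrant in MDA-MB-453 and MDA-MB-231, by a test of the difference itself in edgeR's model of all 24 libraries (adjusted p at most 0.0052). All 14 were named for a large change in MDA-MB-453 or a profile there like that of PIP, SCGB2A2 or PHGR1. Their calls and directions are therefore partly given by that choice. Over all genes in this test, 2314 of 12750 were called. Differences are log2 fold changes, MDA-MB-453 minus MDA-MB-231.

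The MDA-MB-453 response was higher by 3.55 for H4C8, 3.14 for INPP4B, 2.43 for PTGES, 1.39 for JUN, 1.20 for SRP19, 1.17 for CLU, 1.14 for SIDT2, 1.09 for SSR3 and 0.82 for TSC22D3. JUN, a subunit of the AP-1 factor, rose by 1.39 in MDA-MB-453 and stood at 0.00 in MDA-MB-231. SSR3 rose by 0.73 in MDA-MB-453 and fell by 0.36 in MDA-MB-231. CLU rose in both, by 2.16 and 0.99. The difference in TSC22D3 was no longer called without MDA-MB-231 fulvestrant replicate 3 (0.69, adjusted p 0.0539 by edgeR).

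The difference was −2.06 for NDRG1, −1.64 for CLDN4, −1.30 for TRPS1, −0.82 for SRP14 and −0.64 for PSAP. NDRG1, which encodes a stress-responsive protein, rose by 1.55 in MDA-MB-231 where it fell by 0.51 in MDA-MB-453. CLDN4 rose by 1.93 in MDA-MB-231 and by 0.29 in MDA-MB-453. PSAP, the precursor of the saposins of the lysosome, rose in both lines, by 1.64 and 1.00. H4C8, INPP4B, SRP19, SSR3 and TSC22D3 have exons that overlap an opposite-strand gene, and CLU, NDRG1 and SRP19 a same-strand gene, so that their values are uncertain. No explanation was tested.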

How the results depend on the processing

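Of the 6 member genes tested in MDA-MB-453 combination against fulvestrant, 6 were called in each of 12 alternatives, the replicate block among them (6). SCGB2A2 ranged from 3.62 to 4.49 and AZGP1 from 0.41 to 0.58 when single libraries were left out. Of 1834 gene values, 1765 were counted as the same. In 40 of these the sign changed, by less than the spread between replicates and without a call in either fit. SCGB1D2 in combination against abemaciclib ranged from −0.54 to 0.69 over libraries left out, SCGB2A2 in fulvestrant against DMSO from −0.32 to 0.63, and the TFAP2A difference between lines from −0.41 to 0.046.

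Few genes responded to fulvestrant, and those counts were unstable. The MDA-MB-453 fulvestrant against DMSO count of 156 became 294 with DESeq2 and 269 without a filter, and 5 (without fulvestrant replicate 2) to 786 (without fulvestrant replicate 3) with 1 library left out. Combination against abemaciclib gave 273 calls, and 83 (without combination replicate 2) to 518 (without abemaciclib replicate 1). In MDA-MB-231 edgeR and DESeq2 called 0 genes for fulvestrant (799 at an unadjusted p under 0.05), 14 were called without a filter, and 0 to 205 (without fulvestrant replicate 1) with 1 library left out. The causes were not tested. Replicate numbers did not pair the libraries: same-numbered deviations correlated between −0.0900 and 0.0309, and the replicate block gave 3981 calls against 4052. A count of 0 over the 12 libraries of MDA-MB-231 allows a level of up to 0.0688 CPM.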

Other observations

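CYP4F8, the apocrine marker with the largest increase, differed between the 2 groups with abemaciclib, where none of the 6 member genes tested was called. In MDA-MB-453 its libraries held 125, 117 and 109.9 CPM under abemaciclib and 244, 379 and 277 CPM under the combination, against 35.8, 35.5 and 24.0 CPM under DMSO and 32.1, 29.7 and 28.6 CPM under fulvestrant. The combination groups did not overlap with abemaciclib, and the difference was 1.38 on the log2 scale (SE 0.13, adjusted p 1.5e-10 by edgeR). TSC22D3, which steroid receptors induce, showed the same order, with 177 ± 16.3 CPM under DMSO, 172 ± 10.7 under fulvestrant, 371 ± 30.7 under abemaciclib and 532 ± 24.9 under the combination, a difference of 0.54 (SE 0.09, adjusted p 1.2e-04 by edgeR). CLU and TRPS1 were called lower under the combination, at 253 against 341 CPM and at 274 against 355 CPM. Their calls were lost without any one of combination replicates 1 to 3. These genes were all picked out after their values were seen. Fulvestrant without abemaciclib left CYP4F8 within the spread of its DMSO libraries.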
